A study of Mus musculus with 8 samples.

Results

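The long noncoding transcripts of bone marrow derived macrophages (BMDMs) described here are Mir155hg, Malat1, Neat1, Gas5, Snhg1, Dleu2 and Mir22hg. They were taken by symbol from the raw count tables and are 7 of 53735 gene rows. All 7 were among the 14418 genes with enough counts to be tested. The 8 libraries were made from BMDMs of male mice aged 6 months that had received angiotensin II (Ang II) for 7 days by osmotic minipump. The marrow cells were then differentiated for 7 days in culture. WT mice were Mkl1+/+, Apoe-/- and KO mice were Mkl1-/-, Apoe-/-, so both genotypes lacked Apoe, and the deletion of Mkl1 was global rather than limited to macrophages. Experiment 1 held WT libraries 1 and 2 and KO libraries 5 and 6, and experiment 2 held WT libraries 3 and 4 and KO libraries 7 and 8. The 2 experiments are the batches that the submitters name and compare separately.

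All but Malat1 and Neat1 are host transcripts, spliced RNAs whose exons or introns hold a small RNA that is cut out and works apart from its host. Mir155hg, first known as BIC, carries miR-155, which macrophages induce during inflammatory activation through NF-κB and AP-1, and Mir22hg and Dleu2 carry miR-22 and the miR-15a and miR-16-1 pair. Gas5 and Snhg1 hold box C/D small nucleolar RNAs (snoRNAs) in their introns, and their spliced exons are cleared by nonsense-mediated decay when they are translated. Malat1 and Neat1, annotated with 1 exon each, are abundant nuclear RNAs of neighbouring loci, located in nuclear speckles and, for Neat1, forming the core of paraspeckles.

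The small RNAs are what these hosts are best known for, so the mature miRNAs of the 3 miRNA hosts are given first, from RefSeq on GRCm38.p6, with the seed (bases 2 to 8) in capitals. The arms of miR-155 lie at chr16:84714143-84714165 and chr16:84714182-84714202 on the plus strand, in an exon of Mir155hg (chr16:84703167-84715245 in GENCODE M21). The miR-22 arm shown lies at chr11:75463772-75463793 on the plus strand, in an exon of Mir22hg (chr11:75461539-75466676). The arms of miR-15a and miR-16-1 lie at chr14:61632075-61632096 and chr14:61631936-61631957 on the minus strand, in an intron and an exon of Dleu2 (chr14:61602839-61682373).
miR-155-5p: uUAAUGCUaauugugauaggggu
miR-155-3p: cUCCUACCuguuagcauuaac
miR-15a-5p: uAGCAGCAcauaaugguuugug
miR-16-5p: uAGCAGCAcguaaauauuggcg
miR-22-3p: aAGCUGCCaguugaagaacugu
miR-15a-5p and miR-16-5p share the seed AGCAGCA, and the other 3 arms each had a seed of their own. The hairpin of miR-155 is shown with its arms in capitals, because it places both mature products of the host that differed most between the genotypes.
miR-155 hairpin: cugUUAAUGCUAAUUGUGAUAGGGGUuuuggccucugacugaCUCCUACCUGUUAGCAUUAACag
The libraries were prepared by poly(A) selection and report the host RNA. The hairpin entries Mir155 and Mir22 had 0 counts in all 8 libraries, and so had the 9 snoRNAs inside Gas5 and the 8 inside Snhg1, so none of the values below is a level of a mature small RNA.

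Library depth lay between 33977799 and 41584540 counts. The targeted gene Mkl1 had 25.6 and 27.1 CPM (counts scaled to a fixed library size) in the WT libraries of experiment 1, 26.8 and 29.6 in WT of experiment 2, 19.5 and 20.9 in KO of experiment 1, and 14.6 and 10.4 in KO of experiment 2. KO libraries were thus below WT libraries but not near 0, and whether the counted reads lie in the deleted part is not known from the counts. The 10 macrophage markers summed to 16530 to 36880 CPM, of which Lyz2 alone gave 7606 to 23940 CPM. All 10 were detected in every library, and the name macrophage is kept from the labels. The 9 fibroblast markers summed to 208 and 266 CPM in KO libraries 5 and 6 of experiment 1 and to 2.97 to 17.8 CPM in the other 6 libraries. All 7 fibroblast markers tested were higher in KO in experiment 1, with Lum and Thy1 at or near 0 throughout. Of 7 B and plasma cell markers 2 were tested, and in experiment 1 they went in opposite directions. Ighm was higher in KO, at 23.3 and 23.4 CPM and at most 8.50 in the other 6 libraries, and Cd79b was lower, at 1.43 and 1.85 CPM against 3.20 and 3.76 in WT. Neutrophil, T and NK cell, and dendritic cell markers summed to at most 1.5, 2.9 and 1.5 CPM in any library. Among them, in experiment 1, the neutrophil marker S100a8 was lower in KO and the T cell marker Cd4 higher, at log2 fold changes of -2.24 and 1.04. The part of other cells in the results of experiment 1 was not tested, and in bulk RNA fewer cells of a type and less RNA per cell cannot be told apart.

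Per kilobase of exon, Malat1 stood far above the other transcripts in every group, with group means of 1204 to 2786 CPM per kilobase. By the mean over libraries Gas5 came next at 20.1 to 60.5, followed by Mir22hg at 11.5 to 24.5, Neat1 at 14.2 to 21.9, Snhg1 at 4.32 to 12.5 and Dleu2 at 7.40 to 9.17 CPM per kilobase. Mir155hg ranged from 0.0799 in KO of experiment 1 to 14.3 in WT of experiment 2. The order changed between groups. In WT of experiment 2 Mir22hg had a higher mean than Gas5 (21.4 against 20.1), in KO of experiment 1 Neat1 had a higher mean than Gas5 (21.9 against 20.2), and in both of these groups Dleu2 had a higher mean than Snhg1. In WT of experiment 1 no neighbours in this order overlapped between libraries. Mir155hg and Neat1 overlapped in WT of experiment 2, and Neat1 and Mir22hg overlapped in KO of experiment 2. Exon lengths came from GENCODE M21, which counts Neat1 as 1 exon of 20771 bases and merges retained introns into Gas5 and Snhg1. The scaled levels and their order therefore depend on which isoforms are made and captured by poly(A) selection. Counts from a shorter Neat1 isoform would give Neat1 a higher scaled level.

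**Figure D1:**
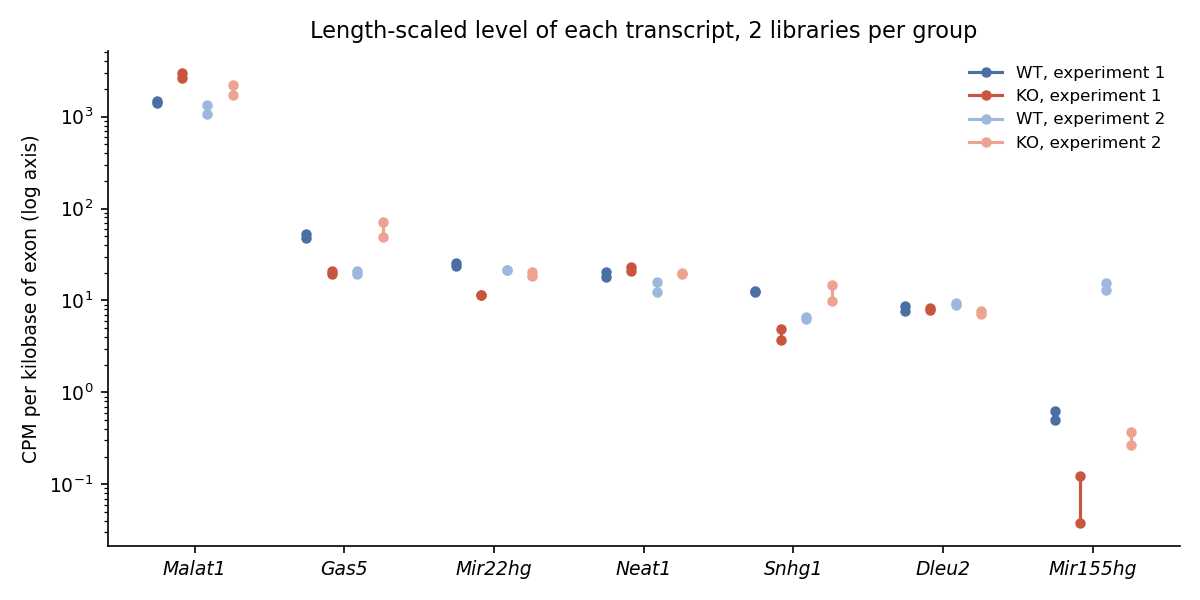
Level of each transcript in CPM per kilobase of exon on a log axis, with the 2 libraries of each group as joined points. Malat1 lies above all others in every group, and Mir155hg spans from 0.0378 to 15.6 CPM per kilobase.

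KO was compared with WT within each experiment by the quasi-likelihood F test of edgeR, adjusted by Benjamini-Hochberg (BH) over all 14418 genes, and a gene was called at an adjusted p under 0.05. In experiment 1, 4 of the 7 transcripts were lower in KO (Mir155hg, Gas5, Snhg1, Mir22hg) and Malat1 was higher, where 28.1% of all genes were called lower and 27.0% higher. In experiment 2, Mir155hg was lower and Gas5 and Snhg1 were higher, where 8.29% of all genes were called lower and 7.52% higher. The median log2 fold change of the 7 was -1.11 in experiment 1 and 0.46 in experiment 2, against 0.01 for all genes in both. Upper-quartile scaling moved the split of all calls in experiment 1 from 4056 lower and 3892 higher to 3207 and 4776. No 2 groups of 2 libraries can give an exact permutation p below 0.333, so p-values come from the fit across genes and measure the spread between libraries, which the labels do not tie to separate animals.

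**Figure D2:**
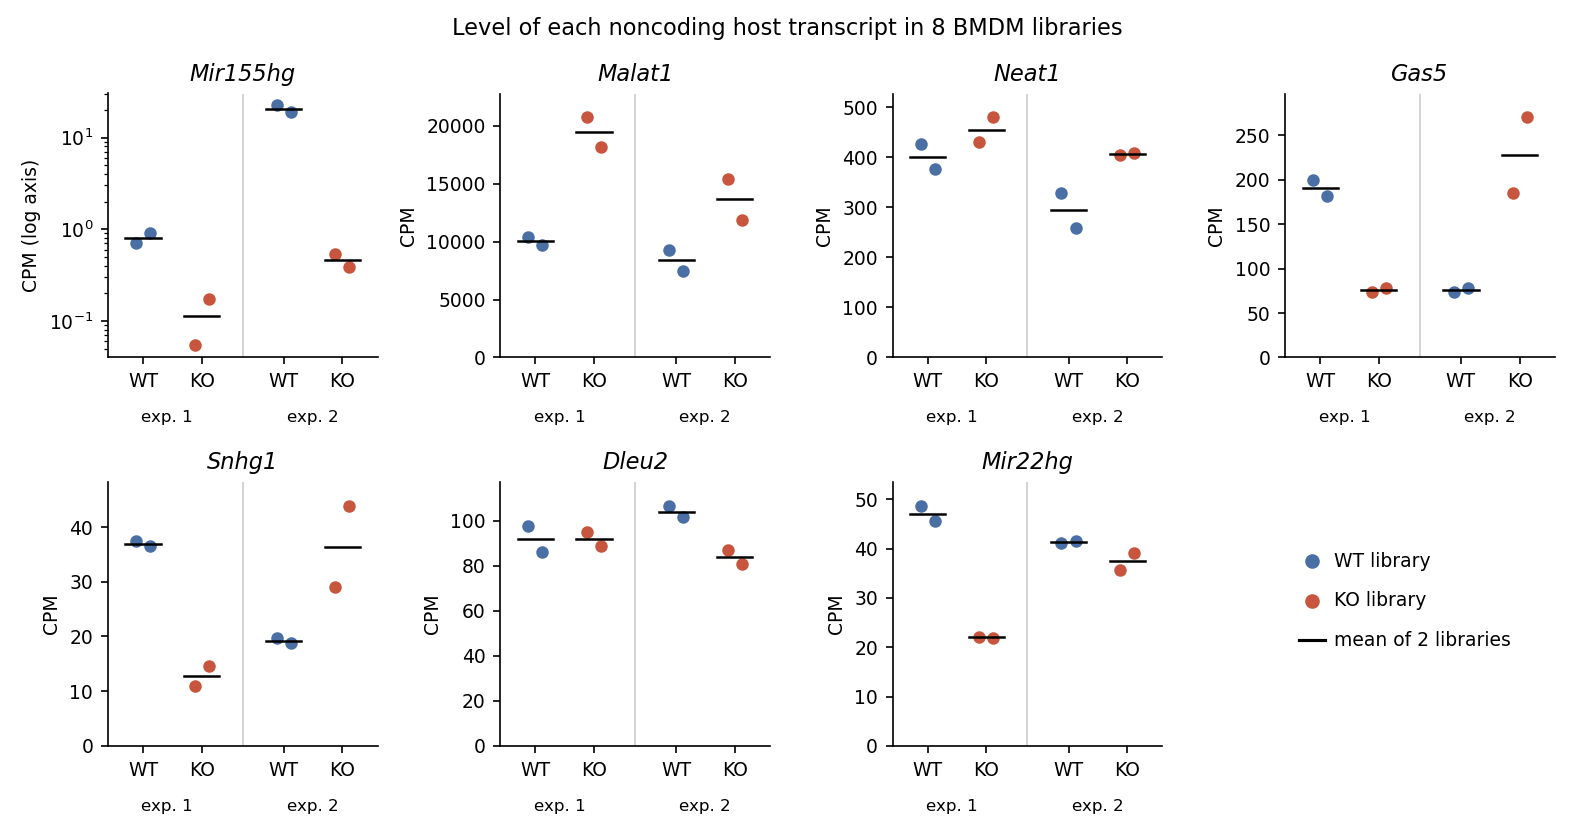
CPM of each transcript in the 8 libraries, with WT libraries in blue, KO libraries in red and the mean of each pair as a bar (log axis for Mir155hg only). Mir155hg was lower in KO in both experiments, whereas Gas5 and Snhg1 were low in KO of experiment 1 and in WT of experiment 2.

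Mir155hg was the transcript with the largest genotype difference. It had 29 and 31 counts in the WT libraries of experiment 1 (0.713 and 0.910 CPM) against 2 and 7 counts in KO (0.0541 and 0.175 CPM). In experiment 2 it had 815 and 653 counts in WT (22.3 and 18.8 CPM) and 22 and 16 counts in KO (0.537 and 0.384 CPM). Every KO library lay below both WT libraries of its experiment, and the WT libraries of experiment 2 stood far above the other 6. The KO libraries of experiment 2 also lay below the WT libraries of experiment 1.

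Mir155hg was lower in KO in experiment 1 by a log2 fold change of -2.77 (standard error 0.50, edgeR adjusted p = 0.00203). Scaled for library size, the ratio of WT to KO counts was 6.86, with a 95% interval for counting error from 3.39 to 15.7, and it rested on 9 counts in KO. The log2 fold change was -3.83 without KO library 6 and -2.19 without KO library 5. In experiment 2 the log2 fold change was -5.47 (standard error 0.24, edgeR adjusted p = 0.00322), the 20th lowest of all 14418 genes. Here the ratio of WT to KO counts, scaled in the same way, was 44.8 (95% interval 32.5 to 63.6). Between batches of like genotype, the mean CPM of Mir155hg was 25.3-fold higher in experiment 2 than in experiment 1 in WT and 4.02-fold higher in KO, which was not tested.

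The genotype effect of Mir155hg was lower in experiment 2 than in experiment 1 (log2 difference -2.72, standard error 0.64, edgeR adjusted p = 0.0127). Of all genes, 20.6% were called lower and 21.0% higher for this difference. The difference rested on KO library 6, without which it was -1.65 (edgeR adjusted p = 0.311). Over both experiments, with experiment as an additive term, Mir155hg had a log2 fold change of -4.49 (standard error 0.64, edgeR adjusted p = 0.0116), the 10th lowest, where 3.41% of all genes were called lower and 3.72% higher. Without KO library 7 the adjusted p over both experiments was 0.0594, at a log2 fold change of -4.19.

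**Figure D3:**
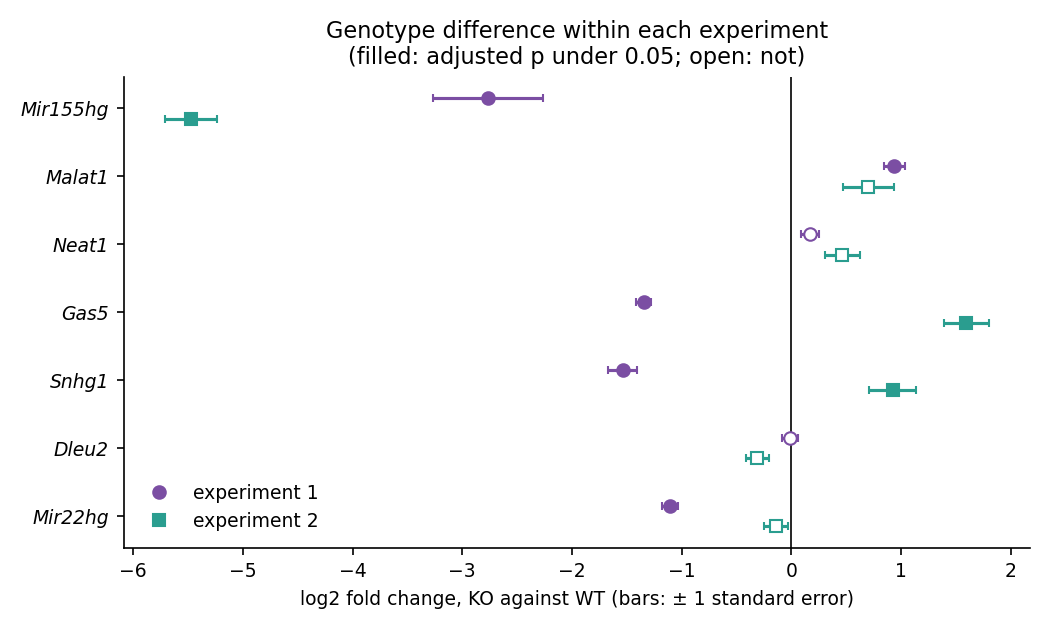
Log2 fold change of KO against WT for each transcript in experiment 1 (circles) and experiment 2 (squares), with bars of 1 standard error; filled symbols passed an adjusted p of 0.05 in edgeR. Mir155hg lies at -2.77 and -5.47, and Gas5 and Snhg1 lie on opposite sides of 0 in the 2 experiments.

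NF-κB and AP-1 are the factors best known for driving the Mir155hg promoter. Of their 13 subunit genes, 10 were lower in KO in experiment 1 and the rest not called (median log2 fold change -0.47), and 6 were lower and 3 higher in experiment 2 (median -0.60). Of all genes, 28.1% were lower and 27.0% higher in experiment 1, and 8.29% and 7.52% in experiment 2. Nfkb2, which encodes the p100 precursor, had 64.3 and 56.6 CPM in WT and 52.4 and 51.7 in KO of experiment 1, and 243 and 259 CPM in WT and 45.0 and 35.2 in KO of experiment 2. As with Mir155hg, WT of experiment 2 stood apart from the other 3 groups. Nfkb2 differed by -0.23 (log2) in experiment 1 and by -2.65 in experiment 2 (edgeR adjusted p = 0.0306 and 0.00422).

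Relb, Rel, Nfkb1 and Junb, named after their values were seen, were lower in KO in both experiments. Their log2 fold changes in experiment 2 were -2.01, -1.14, -1.30 and -1.29. Fosl2, an AP-1 subunit, took another course, with -0.47 in experiment 1 and 1.37 in experiment 2 (edgeR adjusted p = 0.00982 and 0.00631). Jun and Jund, also named after their values were seen, were likewise lower in KO in experiment 1 and higher in experiment 2.

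**Figure D4:**
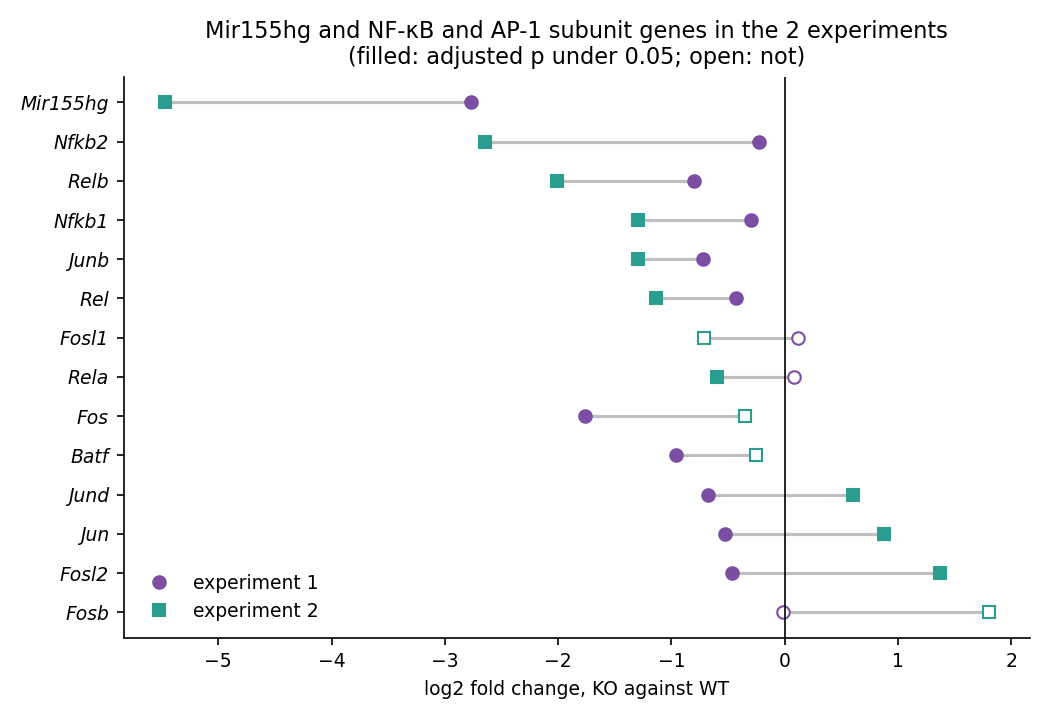
Log2 fold change of KO against WT for Mir155hg and the 13 NF-κB and AP-1 subunit genes in experiment 1 (circles) and experiment 2 (squares), ordered by experiment 2; filled symbols passed an adjusted p of 0.05 in edgeR. Nfkb2 and Relb lie nearest to Mir155hg in experiment 2, at -2.65 and -2.01.

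The genes whose levels ran most like Mir155hg over the 8 libraries were sought among 9072 genes by the root mean square difference of centred log2 CPM, where a smaller value means a closer course. They were Cd69, a leukocyte activation antigen, at 0.570, Clec4e, which encodes the pattern receptor Mincle, at 0.807, and Gpr84, a receptor for medium-chain fatty acids, at 0.874. These compare with a spread of 2.63 for Mir155hg around its own mean. The log2 fold changes of Cd69 were -2.42 and -4.65 in experiments 1 and 2, those of Clec4e were -1.29 and -4.23, and those of Gpr84 were -4.62 and -4.51. The nearest protein-coding gene, Mrpl39 on the opposite strand with its start 32575 bases away, was also lower in KO in both experiments, at -0.26 and -0.90 (edgeR adjusted p = 0.0233 and 0.0152).

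Of 8 genes known as miR-155 targets, 4 were lower and 1 higher in KO in experiment 1, and 3 were lower and 2 higher in experiment 2. Shares over all genes were 28.1% lower and 27.0% higher in experiment 1, and 8.29% and 7.52% in experiment 2. Cebpb, a transcription factor of macrophage activation, had -1.56 and -0.04 as its log2 fold changes (edgeR adjusted p = 1.75e-06 and 0.838). Bach1, a haem-binding repressor, had -0.71 and 1.22 (edgeR adjusted p = 6.09e-05 and 0.0202). The called target mRNAs went in both directions while their miRNA's host was lower in KO in both experiments.

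Mir22hg had 48.6 and 45.5 CPM in WT and 22.2 and 21.9 CPM in KO of experiment 1. In experiment 2 it had 41.1 and 41.4 CPM in WT and 35.7 and 39.1 CPM in KO. The KO libraries of experiment 1 stood apart, and in experiment 2 the KO libraries lay just below WT. Mir22hg thus differed by -1.11 (log2) in experiment 1 (standard error 0.07, edgeR adjusted p = 9.15e-06) and -0.14 in experiment 2 (standard error 0.11, edgeR adjusted p = 0.410). The genotype effects differed by 0.95 on the log2 scale (standard error 0.11, edgeR adjusted p = 0.000923).

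Tlcd2, a lipid-regulating membrane protein gene that overlaps the exons of Mir22hg by 206 bases on the same strand, had 969 counts over all 8 libraries, against 819 to 1977 in each library for the host. Its log2 fold changes, 0.98 and -0.46 (edgeR adjusted p = 0.00781 and 0.264), did not follow those of Mir22hg. Of 3 known miR-22 targets, 1 was higher in KO in each experiment and the others were not called, where 27.0% and 7.52% of all genes were higher. That gene was Hdac4, a class II histone deacetylase, at 0.35 and 0.60 (edgeR adjusted p = 0.00431 and 0.0251). The genes closest to Mir22hg in course were Cyfip1, Abce1 and Orc2, at root mean square differences of 0.052, 0.063 and 0.071.

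Dleu2 had the smallest genotype difference in experiment 1. It had 97.5 and 86.0 CPM in WT and 94.9 and 88.7 CPM in KO of experiment 1, so the genotypes overlapped. In experiment 2 it had 107 and 101 CPM in WT and 86.8 and 80.9 CPM in KO, without overlap. Its log2 fold change was -0.01 in experiment 1 and -0.31 in experiment 2 (standard errors 0.07 and 0.11, edgeR adjusted p = 0.903 and 0.109), and neither passed the test. In the 4-group edgeR fit the effect in experiment 2 passed (adjusted p = 0.0333). The sign in experiment 1 was positive under upper-quartile scaling, at 0.09.

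Trim13, a ubiquitin ligase gene on the opposite strand within the span of Dleu2, shares no exonic base with it. It was lower in KO in both experiments, at -1.97 and -1.55 (edgeR adjusted p = 2.00e-05 and 0.00534), unlike its neighbour. The entry Mir15a, in a Dleu2 intron, drew 353 counts over the 8 libraries and had log2 fold changes of 0.14 and -0.33, neither of them called. All 5 known targets of miR-15a and miR-16 were lower in KO in experiment 1, and 1 was higher in experiment 2, with the others not called, where 28.1% of all genes were lower in experiment 1 and 7.52% higher in experiment 2. Bcl2, the inhibitor of apoptosis, had -0.79 and 1.08, and Ccne1, cyclin E1, had -1.59 and 0.13, while Dleu2 had the values above.

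Of 4 other miRNA hosts with enough counts, 1 was lower and 1 higher in KO in experiment 1, and 1 was lower in experiment 2, near the shares over all genes in experiment 1 (28.1% lower and 27.0% higher) and against 8.29% lower in experiment 2. Mir17hg, host of the miR-17 to miR-92a cluster, had -1.01 and 0.57 (edgeR adjusted p = 0.000999 and 0.0968). Mir99ahg, host of miR-99a, let-7c and miR-125b-2, had 0.72 and -1.80 (edgeR adjusted p = 0.0201 and 0.00387), and its WT libraries of experiment 2 were the highest of the 8 at 54.1 and 52.2 CPM. The 9 genes of miRNA processing and Argonaute proteins had 4 lower and 2 higher in experiment 1 and 1 higher in experiment 2, where 7.52% of all genes were higher. Among them Ago2, the slicing Argonaute, had -0.52 and 0.53 and Dgcr8, the partner of Drosha, had -0.57 and 0.16.

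Gas5 changed in opposite directions in the 2 experiments. It had 200 and 182 CPM in WT and 73.6 and 77.9 CPM in KO of experiment 1, and 73.2 and 77.9 CPM in WT and 185 and 270 CPM in KO of experiment 2. The low pairs, KO of experiment 1 and WT of experiment 2, had means of 75.8 and 75.5 CPM, and the genotypes did not overlap in either experiment. In log2 terms Gas5 differed by -1.35 in experiment 1 (standard error 0.07, edgeR adjusted p = 3.87e-06) and by 1.59 in experiment 2 (standard error 0.21, edgeR adjusted p = 0.0146). The genotype effects differed by 2.92 on the log2 scale (standard error 0.24, edgeR adjusted p = 0.000293). Over both experiments the log2 fold change was 0.13 (edgeR adjusted p = 0.930). Without WT library 3 the effect in experiment 2 was 1.54 with an edgeR adjusted p of 0.0548.

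Snhg1 followed the same course at a lower level. It had 37.4 and 36.5 CPM in WT and 11.0 and 14.7 CPM in KO of experiment 1, and 19.7 and 18.8 CPM in WT and 29.0 and 43.8 CPM in KO of experiment 2. As for Gas5, the genotypes did not overlap, and the order of WT and KO was exchanged between the experiments. Snhg1 had a log2 fold change of -1.54 in experiment 1 (standard error 0.13, edgeR adjusted p = 0.000145) and 0.92 in experiment 2 (standard error 0.21, edgeR adjusted p = 0.0467). In limma-voom the value in experiment 2 was 0.89 and was not called (adjusted p = 0.0588). The genotype effects differed by 2.45 on the log2 scale (standard error 0.29, edgeR adjusted p = 0.000923). The call in experiment 2 was lost without WT library 3, WT library 4 or KO library 8, with log2 fold changes of 0.95, 0.89 and 0.59 and edgeR adjusted p of 0.154, 0.146 and 0.106. The ratio of Gas5 to Snhg1 per kilobase stayed between 2.94 and 5.31 over the 8 libraries.

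Other snoRNA hosts were measured alongside, and 11 of 15 in the tables were tested. In experiment 1, 7 of the 11 were lower in KO (median log2 fold change -0.50), and in experiment 2, 4 were higher (median 0.45), with the rest not called. The shares over all genes were 28.1% lower in experiment 1 and 7.52% higher in experiment 2. Snhg6 had -1.30 and 0.71 (edgeR adjusted p = 2.50e-05 and 0.0267), and Snhg8 had -0.77 and 1.33 (edgeR adjusted p = 0.000214 and 0.0132). For 7 of the 11 the genotype effect was higher in experiment 2 than in experiment 1 by the test of the difference, where 21.0% of all genes were. Snhg12, at -1.04 and 1.51, was also the gene closest to Gas5 in course, at a root mean square difference of 0.134. Next came Slc16a6, a monocarboxylate transporter gene family member, at 0.160, and Sesn2, a stress-induced leucine sensor, at 0.165. For Snhg1 the closest were Spred2, Prmt3 and Eprs, at 0.114, 0.118 and 0.131.

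**Figure D5:**
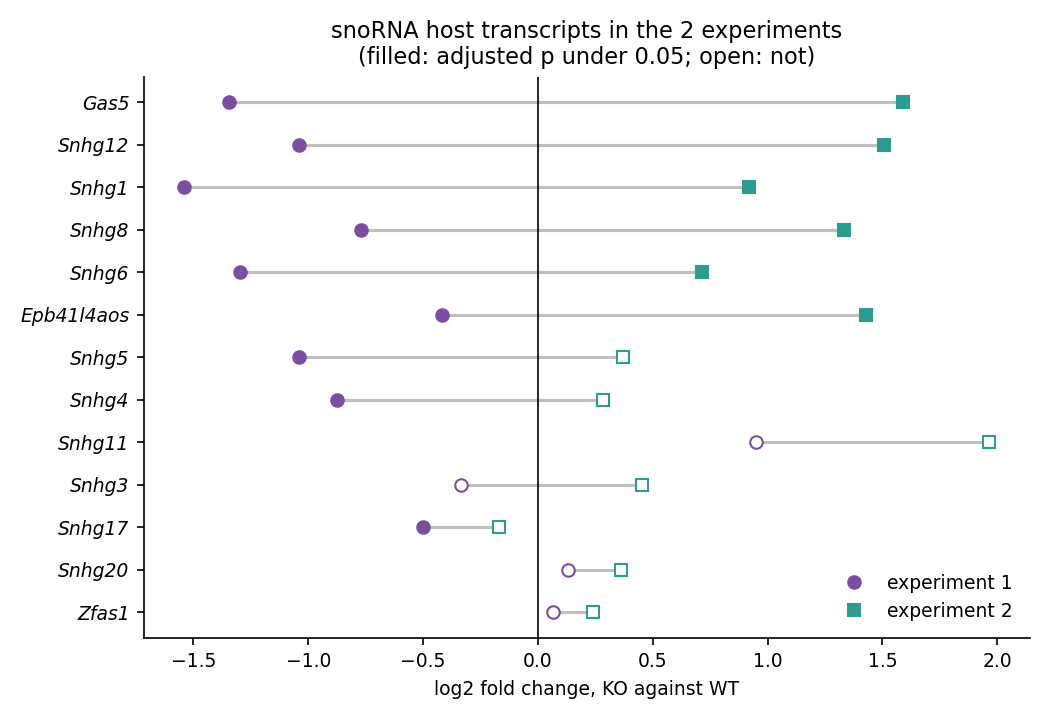
Log2 fold change of KO against WT for Gas5, Snhg1 and the 11 other snoRNA hosts tested, in experiment 1 (circles) and experiment 2 (squares), ordered by the difference between experiments; filled symbols passed an adjusted p of 0.05 in edgeR. Every host has its square to the right of its circle, and Gas5 spans from -1.35 to 1.59.

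Genes that act with these hosts were counted against shares over all genes of 28.1% lower and 27.0% higher in experiment 1, and 8.29% and 7.52% in experiment 2. The 8 snoRNP protein genes were all lower in KO in experiment 1 (median -0.78), and 0 were called in edgeR in experiment 2 (median -0.11), where 1 was lower at an unadjusted p under 0.05 and 1 in DESeq2. Nop56 and Nop58, core proteins of box C/D particles, had -1.41 and -1.58 in experiment 1 and 0.25 and 0.09 in experiment 2. Of 10 nonsense-mediated decay factors, 3 were lower and 2 higher in experiment 1 and 0 were called in edgeR or DESeq2 in experiment 2, where 2 were lower at an unadjusted p under 0.05. Upf2, an adaptor of the decay complex, had 0.32 and -0.22, and Smg6, its endonuclease, had 0.55 and 0.03. At the loci, Slc3a2, which encodes the heavy chain of amino acid transporters and starts 106 bases from Snhg1 on the opposite strand, had -1.28 and 0.51 (edgeR adjusted p = 2.29e-06 and 0.124). Zbtb37, starting 427 bases from Gas5 on the opposite strand, had -0.05 and 0.09 and was not called.

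By the test of the difference, 2 of the 10 macrophage markers had a higher genotype effect in experiment 2, as Gas5 and Snhg1 had. These were Adgre1 and Itgam, and 5 were lower (Csf1r, Cd68, Trem2, Mrc1 and Cd14), where 21.0% of all genes were higher and 20.6% lower. Adgre1, the F4/80 antigen, had 8328 and 7102 CPM in WT and 1929 and 1669 in KO of experiment 1, and 2678 and 2720 in WT and 4874 and 5264 in KO of experiment 2. Itgam, the integrin CD11b, was likewise lower in KO in experiment 1 and higher in experiment 2, at log2 fold changes of -1.03 and 1.34 (edgeR adjusted p = 6.39e-06 and 0.0371). Csf1r, the receptor of the macrophage growth factor, had 0.82 and -1.28 (edgeR adjusted p = 0.000966 and 0.0309). Of the 10 macrophage markers, 3 were lower and 6 higher in KO in experiment 1, where 28.1% and 27.0% of all genes were, and 2 were lower and 2 higher in experiment 2, where 8.29% and 7.52% were. The part of macrophage state in the levels of the snoRNA hosts was not tested.

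Gas5 is a textbook member of the genes with a 5′ terminal oligopyrimidine (TOP) start, whose translation follows growth signals, so 30 bases from a start of Gas5 and of Snhg1 are shown from RefSeq on GRCm38.p6, with the opening run of pyrimidines in capitals. They begin at chr1:161035166-161035195 and chr19:8723487-8723516, both on the plus strand.
Gas5: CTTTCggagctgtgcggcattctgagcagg
Snhg1: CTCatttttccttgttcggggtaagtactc
From these starts Gas5 opens with a run of 5 pyrimidines and Snhg1 with 3. RefSeq has another start of Gas5 upstream, at position 161034601, which opens with 0 pyrimidines, and the GENCODE start lies further upstream at 161034422. A start with C and at least 5 pyrimidines was found in 2.51% of 32851 RefSeq windows and in 2 of 15 other snoRNA hosts with a RefSeq window, Snhg7 and Snhg8. These 15 are not the 15 in the count tables, since some hosts are in only 1 of the sources. The window around the downstream start of Gas5 is printed whole, since it is the snoRNA host with the most counts among the members and held a cyclic AMP response element (CRE), in capitals with the TOP run.
Gas5, chr1:161034916-161035215, plus strand: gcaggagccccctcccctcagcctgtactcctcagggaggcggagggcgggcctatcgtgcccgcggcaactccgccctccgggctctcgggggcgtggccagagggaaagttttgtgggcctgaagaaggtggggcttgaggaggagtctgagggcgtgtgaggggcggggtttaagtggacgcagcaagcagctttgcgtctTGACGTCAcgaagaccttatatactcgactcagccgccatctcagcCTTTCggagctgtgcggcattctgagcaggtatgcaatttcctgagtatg
The CRE, TGACGTCA on both strands, starts 46 bases before this downstream start and lies after both upstream starts, and 1.79% of all windows hold it. The window of the upstream RefSeq start of Gas5 and those of the other 5 members with a RefSeq entry held no CRE, and no window of the 6 members held an AP-1 site (TGANTCA), a CArG box or an NF-κB motif, which 7.81%, 1.63% and 4.51% of all windows hold. The RefSeq start of Mir155hg lies 9856 bases downstream of its GENCODE start, so its window does not cover that start.

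Malat1, a nuclear speckle RNA tied to splicing factors, was higher in KO as counted after poly(A) selection. Whether its capture by that selection differed between libraries was not tested. Malat1 had 10418 and 9716 CPM in WT and 20723 and 18189 CPM in KO of experiment 1, and 9310 and 7505 CPM in WT and 15425 and 11900 CPM in KO of experiment 2. In both experiments each KO library lay above both WT libraries, and the same holds over all 8. Malat1 had a log2 fold change of 0.94 in experiment 1 (standard error 0.10, edgeR adjusted p = 0.000120) and 0.70 in experiment 2 (standard error 0.23, edgeR adjusted p = 0.102). In experiment 2 it was called in DESeq2 (adjusted p = 0.00688), in edgeR without the filter on low counts (adjusted p = 0.0297) and in the 4-group edgeR fit (adjusted p = 0.0203). The genotype effects were not shown to differ, with a log2 difference of -0.25 (standard error 0.25, edgeR adjusted p = 0.448).

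Over both experiments Malat1 had a log2 fold change of 0.83 (standard error 0.15, edgeR adjusted p = 0.0259). That call was lost when WT library 1, 2 or 4 or KO library 5, 6 or 7 was left out, with log2 fold changes of 0.77 to 0.84 and edgeR adjusted p of 0.0707 to 0.0949. Malat1 took 0.744% to 1.02% of the counts in WT libraries and 1.21% to 2.15% in KO libraries. The genes nearest to it in course were Trim65, Setd7 and RP23-358K1.3, at root mean square differences of 0.111, 0.113 and 0.114.

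Neat1, the scaffold of paraspeckles, lies upstream of Malat1 on the same strand, at chr19:5824708-5845478 against chr19:5795690-5802672. Its counts come from poly(A)-selected libraries and do not separate its isoforms, so they are not a level of the paraspeckle scaffold itself. Neat1 had 425 and 376 CPM in WT and 431 and 479 CPM in KO of experiment 1, and 329 and 259 CPM in WT and 404 and 408 CPM in KO of experiment 2. KO libraries lay above WT libraries in each experiment, and in experiment 1 the nearest pair, at 425 in WT and 431 in KO, lay close together. Neat1 differed by 0.17 (log2) in experiment 1 (standard error 0.08, edgeR adjusted p = 0.119) and 0.46 in experiment 2 (standard error 0.16, edgeR adjusted p = 0.109), and neither was called. In experiment 1 Neat1 passed under upper-quartile scaling at 0.27 (edgeR adjusted p = 0.0205) and without WT library 1 at 0.27 (edgeR adjusted p = 0.0486). In experiment 2 it passed in the 4-group edgeR fit (adjusted p = 0.0314). The genotype effects differed by 0.28 (edgeR adjusted p = 0.259), and by 0.49 without WT library 3 (edgeR adjusted p = 0.0493).

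The ratio of Malat1 to Neat1 in CPM was 24.5 to 28.95 in WT libraries and 29.1 to 48.1 in KO libraries, and the KO range began just above the WT range. Of 9 paraspeckle protein genes, 4 were lower in KO in experiment 1, where 28.1% of all genes were. In experiment 2, where 8.29% of all genes were lower and 7.52% higher, 0 were called in edgeR, 2 were lower and 1 higher at an unadjusted p under 0.05, and 1 was lower and 1 higher in DESeq2. Pspc1, a core paraspeckle protein, had -1.37 and 0.51 (edgeR adjusted p = 8.56e-06 and 0.0744), and Rbm14 had 0.19 and -0.24. Frmd8, the nearest coding gene to Neat1, had 0.07 and 0.02. Fam126a, Adipor2 and Unc119 ran closest to Neat1, at root mean square differences of 0.073, 0.074 and 0.079, and Dopey1, Chid1 and Ppp1r10 closest to Dleu2, at 0.041, 0.048 and 0.050.

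Other long noncoding RNAs were counted in the same way. Of 7 tested, 2 were lower and 1 higher in KO in experiment 1, and 1 was lower and 1 higher in experiment 2 (medians -0.04 in both). Among all genes 28.1% were lower and 27.0% higher in experiment 1, and 8.29% and 7.52% in experiment 2. Ptgs2os2, a noncoding neighbour of the Ptgs2 gene, was lower in KO in both experiments like Mir155hg, at -4.05 and -1.42 (edgeR adjusted p = 3.30e-05 and 0.0281). Pvt1, a neighbour of Myc, had -1.39 and 1.14 (edgeR adjusted p = 0.000108 and 0.0252), as Gas5 and Snhg1 had.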

How the data were processed

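RNA-seq covered BMDMs of 4 WT and 4 KO libraries, made with a stranded poly(A) mRNA kit. The authors deposited whole-number counts per gene symbol in a table for each experiment, and normalized counts, which were not used because they were scaled within each experiment. The submitters' processing notes name STAR 2.7.0f, Subread 1.6.4 with featureCounts, DESeq2 1.22.1 and GRCm38. The annotation release and strand setting are not given in the sources used here.

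Counts were joined by symbol and tested with edgeR 4.0.16 in R 4.3.3 (TMM, filterByExpr by genotype, robust quasi-likelihood F test, BH adjustment, threshold 0.05). Each experiment was fitted alone, as in the series design. The difference of genotype effects came from a 4-group fit, and the test over both experiments had experiment as an additive term. Standard errors were obtained from the fold change and the F statistic. CPM used TMM over all 8 libraries. Intervals cover counting error only. Within replicate pairs the chi-square per gene was 15.6 in WT and 12.4 in KO of experiment 1. In experiment 2 it was 66.7 in WT and 80.4 in KO, and every pair was above counting noise. Exon lengths and loci came from GENCODE M21, and sequences from RefSeq on GRCm38.p6.

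The text names the 7 members, the 2 genes of each list with the smallest p for the difference of genotype effects, genes at the members' loci and the 3 genes of most similar course (mean log2 CPM of at least 3). Markers and the few genes named for their values lie outside this rule. A few genes that this rule names are not reported here. Members and lists were chosen with earlier results of these data known. On simulated data with 200 genes changed 4-fold, the fits recovered 178, 184, 158 and 199 of them for experiment 1, experiment 2, their difference and both, with 11, 8, 5 and 4 false calls. The simulated counts held no difference between experiments and far fewer changed genes than were called here. Their false calls are therefore not an error rate for these data. Alternatives were upper-quartile and RLE scaling, DESeq2 1.42.0, limma-voom (limma 3.58.1), other filters, an adjusted p under 0.01, 4 groups, no experiment term, and each library left out. Figures used matplotlib 3.10.9.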

Additional observations from a re-analysis of the deposited data

Results flagged for a closer look

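Of the 7 transcripts, 4 had a genotype effect that differed between the experiments by the test of the difference itself (effect in experiment 2 minus effect in experiment 1, log2 scale, edgeR quasi-likelihood test). In this test 1 of the 7 was lower and 3 were higher, where 20.6% of all genes were called lower and 21.0% higher. Mir155hg had -2.72 (adjusted p = 0.0127), with KO lower in both experiments and more so in experiment 2, but without KO library 6 the difference was -1.65 (adjusted p = 0.311). Gas5 had 2.92 (adjusted p = 0.000293) and Snhg1 had 2.45 (adjusted p = 0.000923), both with KO lower in experiment 1 and higher in experiment 2. Mir22hg had 0.95 (adjusted p = 0.000923), with KO lower in experiment 1 and an effect of -0.14 in experiment 2. The KO libraries of experiment 1 also carried fibroblast marker sums of 208 and 266 CPM, against at most 17.8 CPM elsewhere, and the part of those cells in these differences was not tested.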

How the results depend on the processing

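Calls of Mir155hg, Malat1, Gas5, Snhg1 and Mir22hg in experiment 1, of Mir155hg in experiment 2, and of the differences of Gas5, Snhg1 and Mir22hg kept their direction and side of the threshold under every alternative that could be computed. Mir155hg could not be tested at 10 counts in every library. In experiment 1, upper-quartile scaling gave 2 members higher, and leaving out a library gave 1 to 2. In experiment 2, 0 members were lower at 10 counts in every library and 2 in the 4-group fit, while 3 were higher in DESeq2 and without the filter on low counts, 1 in limma-voom, 0 at an adjusted p under 0.01, 4 in the 4-group fit and 0 to 2 with a library left out. For the difference, members lower fell to 0 at 10 counts in every library and at 0.01, and were 0 to 1 with a library left out. Over both experiments, members lower were 2 in DESeq2, 0 at 10 counts in every library, at 0.01 and without the experiment term, and 0 to 1 with a library left out, and members higher were 0 at 0.01 and without the experiment term, and 0 to 1 with a library left out. Dleu2 in experiment 1 turned positive under upper-quartile scaling (0.0887), 10 counts in every library (0.00996) and the 4-group fit (0.000584), with -0.0988 to 0.0860 over left-out libraries. Over both experiments Gas5 ranged from -0.36 to 0.63 and Snhg1 from -0.68 to 0.14 with a library left out, and neither was called. The cause of these changes was not tested. Over all genes, calls in experiment 2 went from 2279 to 4899 in the 4-group fit, 234 at 0.01 and 232 (without KO library 8) to 1388 with a library left out. Over both they went from 1027 to 2492 in DESeq2, 208 at 0.01, 4 without the experiment term and 243 (without WT library 1) to 1100 with a library left out, and upper-quartile scaling changed 491 lower and 536 higher to 367 and 754. For the difference they went from 5996 to 3247 at 0.01 and 3935 (without WT library 2) to 6508 with a library left out. No paired analysis was possible because the libraries are numbered 1 to 8 and the genotypes share no number. Depth limited Mir155hg in experiment 1, where KO had 2 and 7 counts.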

Other observations

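Some host transcripts with too few counts to be tested, named here after their values were seen, were highest in the KO libraries of experiment 1. H19, host of miR-675, had 1.60 CPM in both of them and at most 0.165 CPM in the other 6 libraries. Mir143hg, host of miR-143 and miR-145, had 0.839 and 0.750 CPM there and at most 0.0880 elsewhere. Snhg18 had 0.433 and 0.600 CPM there and at most 0.122 elsewhere. These are the libraries with the high fibroblast marker sums. Ptgs2os, an antisense neighbour of Ptgs2, had 0.0880 to 0.301 CPM in the 4 WT libraries and 0 counts in the 4 KO libraries, where up to 3 counts per library would still be within counting error.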
